A study of Mus musculus with 45 samples.

Results

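Transcripts of 10 Wnt pathway and crypt stem cell genes were followed in the colonic epithelium of lean, obese and formerly obese mice. The set held Wnt targets, stem cell markers and Ctnnb1, the transducer of the pathway. Methylation was followed at the CpGs sequenced near Lgr5 and Ctnnb1. The genes were chosen by symbol (Lgr5, Ascl2, Axin2, Rnf43, Ctnnb1, Myc, Ccnd1, Ccnd2, Sox9 and Cd44) out of 24918 entries of the gene count table, and each had 1 entry. They were chosen with the results of all 3 diet comparisons known, so their RNA levels and differences are given as a description. The call rule used on them below serves only as a label, and no p-value for them is read as evidence. The CpGs were chosen by position, within 10 kb of the span of either gene, which took 21 of 233 CpGs, 14 in Lgr5 and 7 in Ctnnb1. All animals were male C57BL/6 mice (C57BL/6J in the methods of the study) that entered the study at 6 weeks of age and were followed for 20 weeks. Control mice (LF) received the 10% fat diet throughout, obese mice (HF) the 60% fat diet throughout, and formerly obese mice (HFLF) ate the 60% fat diet for 15 weeks before 5 weeks on the 10% fat diet. RNA-seq and sequencing of bisulfite PCR amplicons (BSP-seq) each covered 5 mice per group, to ask which genes and CpGs differ in obesity and which still differ after weight loss, and whole-genome bisulfite sequencing (WGBS) gave a list of regions that differed between obese and control mice. The cells were released from the whole colon with EDTA, so that every value is an average over all positions along the colon and over all epithelial cell types.

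Wnt ligands bind Frizzled and Lrp receptors and thereby stop the destruction complex, built around Axin and Apc, from marking beta-catenin for degradation. Stabilised beta-catenin, the product of Ctnnb1, enters the nucleus and acts with TCF/LEF factors on target genes. At the base of the colonic crypt this pathway maintains the stem cells: Lgr5 encodes a receptor for R-spondins and Ascl2 a transcription factor, and both mark these cells. Axin2 and Rnf43 are targets that feed back negatively on the pathway. Myc, Ccnd1 and Ccnd2 drive entry into the cell cycle, Sox9 is a transcription factor of the lower crypt, and Cd44 is a cell surface receptor for hyaluronan found there.

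The BSP-seq CpGs lay within gene bodies, far from the start sites, and the Lgr5 sequence is shown because the Lgr5 methylation results rest on it. The 14 CpGs of Lgr5 (chromosome 10, 115459683 to 115460055) all lay in intron 13 of transcript Lgr5-201, with the first one 128 kb from the annotated gene start. The 7 CpGs of Ctnnb1 began 24.4 kb from the gene start. The first 4 were in a coding exon and the last 3 in the following intron, and all 7 also lay inside the annotated span of Ulk4 on the opposite strand. The line below gives the plus strand of GRCm38 (mm10) at chr10:115459683-115459861, with the first 10 of the measured Lgr5 CpGs in capitals.
Lgr5 CpGs: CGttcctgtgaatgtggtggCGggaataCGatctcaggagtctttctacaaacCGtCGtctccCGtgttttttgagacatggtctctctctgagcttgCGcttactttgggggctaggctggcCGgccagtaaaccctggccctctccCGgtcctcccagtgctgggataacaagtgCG

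In introns of 3 of the 10 genes lay 5 differentially methylated regions (DMRs) of the WGBS list, all marked there as hypomethylated in obese against control mice. They are shown with 10 bases on each side and every CpG in capitals, again on the plus strand of GRCm38. The Lgr5 region (chromosome 10, 115579704 to 115579742) was in intron 1 of Lgr5-201, 8.08 kb from the gene start, and also inside the span of A930009A15Rik. The first Rnf43 region (chromosome 11, 87702097 to 87702109) was in intron 1 of Rnf43-201 and inside 1110028F11Rik, and the others (87723510 to 87723528 and 87726994 to 87727013) were in intron 2. The Cd44 region (chromosome 2, 102826338 to 102826347) was in intron 16 of Cd44-201.
Lgr5 region: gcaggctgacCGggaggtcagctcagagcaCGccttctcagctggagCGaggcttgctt
Rnf43 region in intron 1: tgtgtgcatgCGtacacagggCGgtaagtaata
Rnf43 region in intron 2: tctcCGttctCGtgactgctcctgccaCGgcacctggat
Rnf43 region in intron 2: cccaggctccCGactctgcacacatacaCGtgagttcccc
Cd44 region: gactagttccCGcccaccCGattctcactt

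The 15 RNA-seq libraries held 15230391 to 22762095 counts, and all 10 genes passed the filter on low counts. Levels are given as CPM, the depth-scaled unit of gene counts, from library totals after TMM scaling. The libraries carried the markers of colonic epithelium: Epcam lay at 1975 to 2219 CPM and Vil1 at 922 to 1167 CPM in every library. All 6 smooth muscle markers stayed under 1 CPM everywhere, and the summed level of 7 fibroblast markers lay at 5.91 to 18.7 CPM in control, 12.6 to 26.2 CPM in obese and 12.4 to 38.9 CPM in formerly obese mice, with Lum and Pdgfra under 1 CPM in every library. The labels did not name a sequencing batch. A lower RNA level in such bulk samples can mean fewer cells of a type or less RNA per cell, and these cannot be told apart.

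Per kilobase of annotated exon, Ctnnb1 was by far the most abundant of the 10 transcripts. Its mean over the 15 libraries was 247 RPKM (CPM per kilobase, range 229.7 to 257), which was 8.11 times that of Ccnd2, the next gene, and did not overlap with it. Ccnd2 (mean 30.5 RPKM, 23.2 to 37.9) and Ccnd1 (26.8 RPKM, 23.2 to 31.2) followed with overlapping ranges. The highest Sox9 library (mean 18.2 RPKM) lay below the lowest Ccnd1 library, and the Sox9 range of 13 to 21.3 RPKM overlapped with that of Myc (13.1 RPKM, 10.5 to 15). Cd44 at a mean of 11.6 RPKM, Axin2 at 9.98 RPKM and Rnf43 at 8.95 RPKM formed a further run of neighbours with overlapping ranges. The stem cell markers were lowest, Ascl2 at 4.7 RPKM (2.86 to 6.11) and Lgr5 at 2.51 RPKM (1.77 to 3.17), with overlapping ranges, and the Ctnnb1 mean was 98.3 times that of Lgr5.

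**Figure D1:**
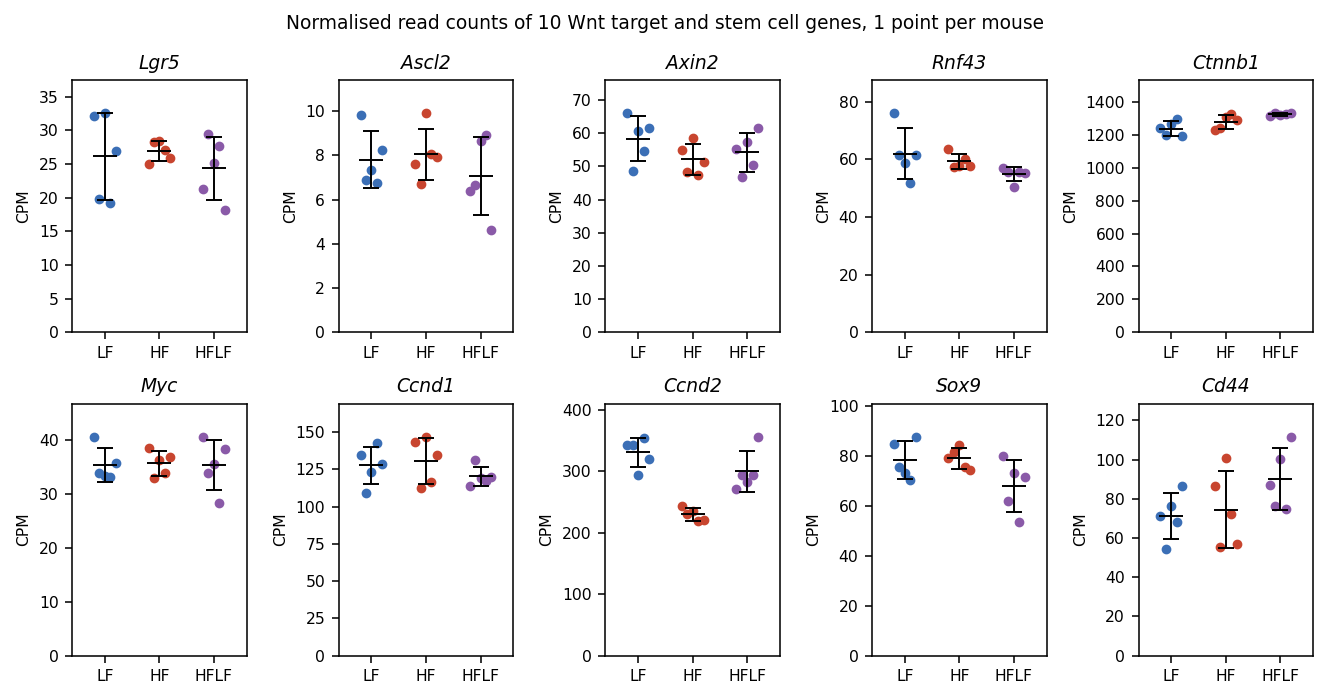
Normalised read count (CPM, vertical axis starting at 0) of each of the 10 genes by diet group, with 1 point per mouse and black bars for the mean ± SD of 5 mice. The 5 obese mice lie at 219 to 244 CPM for Ccnd2, below all control and all formerly obese mice, whereas the groups overlap for Lgr5, Ascl2, Axin2, Myc, Ccnd1, Sox9 and Cd44.

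The stem cell receptor gene Lgr5 (Entrez 14160; chromosome 10, 115450314 to 115587780) lay at 32.1, 19.8, 32.6, 19.2 and 26.9 CPM in the 5 control mice. Obese mice had 25.0, 28.3, 28.4, 27.0 and 25.9 CPM, and formerly obese mice 21.3, 29.5, 25.2, 27.7 and 18.2 CPM. The control values spread to both sides of the narrow range of the obese mice, and the groups overlapped throughout. The means were 26.1 ± 6.43, 26.9 ± 1.51 and 24.4 ± 4.64 CPM (SD, n = 5 each), and the log2 fold change was 0.04 (SE 0.15) for obese against control and -0.10 (SE 0.15) for formerly obese against control mice. Both differences were smaller than their SE.

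Ascl2 (Entrez 17173; chromosome 7, 142966822 to 142969264), which encodes a transcription factor of the stem cells, was the gene with the fewest reads, with 82 to 194 raw counts per library. Its range was 6.77 to 9.84 CPM in control, 6.72 to 9.91 CPM in obese and 4.64 to 8.93 CPM in formerly obese mice. The ranges overlapped in every comparison, and formerly obese replicate 5 was the lowest of the 15 libraries for both Ascl2 and Lgr5. The log2 fold change of Ascl2 was 0.04 (SE 0.16) in obese and -0.14 (SE 0.16) in formerly obese mice, each against control mice.

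The feedback targets moved little. Axin2 (chromosome 11, 108920349 to 108950781), a scaffold of the destruction complex, had means of 58.4 ± 6.80 CPM in control, 52.2 ± 4.63 CPM in obese and 54.3 ± 5.88 CPM in formerly obese mice (SD, n = 5 each). Its log2 difference of -0.16 (SE 0.09) between obese and control mice was the largest among the genes other than Ccnd2 in that comparison, and the ranges overlapped. Rnf43 (chromosome 11, 87663087 to 87735539), a ubiquitin ligase that removes Frizzled receptors from the cell surface, lay at 52.0 to 76.1 CPM in control, 57.5 to 63.7 CPM in obese and 50.6 to 57.0 CPM in formerly obese mice. All formerly obese mice were below all obese mice for Rnf43, by a log2 difference of -0.12 (SE 0.07), which is under the 1.2-fold cutoff.

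Ctnnb1 (Entrez 12387; chromosome 9, 120933400 to 120960507), the transducer of the pathway, varied least. Control mice had 1240.2, 1202, 1269, 1296 and 1193 CPM, and obese mice 1231, 1243, 1312, 1331 and 1289 CPM. Formerly obese mice had 1315, 1334, 1324, 1326 and 1334 CPM. The formerly obese mice were all above the control mice, with an SD of 7.61 CPM against 43.8 CPM in control mice, and the obese mice overlapped with both. The difference between formerly obese and control mice was small, at a log2 fold change of 0.10 (SE 0.04).

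Myc (chromosome 15, 61985341 to 61990361), a transcription factor of growth and proliferation, was at nearly the same level in all groups, with means of 35.5 ± 3.11, 35.8 ± 2.32 and 35.4 ± 4.65 CPM in control, obese and formerly obese mice (SD, n = 5 each). The log2 fold change was 0.01 (SE 0.08) for obese against control mice. Ccnd1 (chromosome 7, 144929931 to 144939925), which encodes cyclin D1, had overlapping values of 109 to 142 CPM, 112 to 147 CPM and 114 to 131 CPM in the same order of groups. Its log2 fold change was 0.04 (SE 0.08) in obese mice and -0.09 (SE 0.08) in formerly obese mice, each against control mice.

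Ccnd2 (Entrez 12444; chromosome 6, 127125709 to 127151048), which encodes cyclin D2, a partner of Cdk4 and Cdk6 in G1, was the exception. The 5 control mice had 343, 342, 294, 355 and 319.8 CPM. The 5 obese mice had 244, 229.8, 236, 219 and 221 CPM, and the 5 formerly obese mice 271, 295, 283, 294 and 357 CPM. Each obese mouse was below each control mouse and each formerly obese mouse, whereas 2 of the formerly obese mice were below the lowest control mouse and the others overlapped with the control range. The means were 331 ± 24.2, 229.8 ± 10.6 and 299.7 ± 33.2 CPM (SD, n = 5 each), so that the level was lower by 30.5% in obese than in control mice. The log2 fold change was -0.52 (SE 0.07) for obese against control, 0.38 (SE 0.07) for formerly obese against obese and -0.14 (SE 0.07) for formerly obese against control mice. The first of these comparisons shares the obese libraries with the second and the control libraries with the last. Without formerly obese replicate 5, the library with the highest value, the difference from obese mice was 0.31 and that from control mice -0.21.

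Proliferation and immune markers are set beside Ccnd2 here. The summed level of 8 proliferation markers, such as Mki67 and Top2a, was 429 to 661 CPM in control, 445 to 632 CPM in obese and 429.5 to 807 CPM in formerly obese mice. Immune cells also express Ccnd2. The 9 immune markers together came to 22.8 to 40.4 CPM in control, 31.2 to 60.0 CPM in obese and 26.1 to 52.2 CPM in formerly obese mice, and the part of immune cells in the Ccnd2 level was not tested. None of the 8 proliferation and 7 tested immune markers was called in any comparison. Gm43126 and 9330179D12Rik overlap Ccnd2 on the opposite strand, A930009A15Rik overlaps Lgr5, Ulk4 overlaps Ctnnb1, and LTO1 overlaps Ccnd1. Among these, 9330179D12Rik had at most 4 counts in a library, A930009A15Rik 0 and Ulk4 7 to 22, and the strand mode of the counting is not given in the sources used here.

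The crypt genes Sox9 and Cd44 had their largest differences in formerly obese mice. Sox9 (chromosome 11, 112782210 to 112787757) lay at 84.7, 75.6, 73.0, 70.5 and 87.9 CPM in control mice and at 74.6 to 84.3 CPM in obese mice. Formerly obese mice had 80.2, 61.9, 73.3, 53.6 and 71.5 CPM. Of these, replicates 2 and 4 were below all other libraries and the rest overlapped with them, for a log2 fold change of -0.20 (SE 0.09) against control mice. Sox9 met the call rule against both groups only when formerly obese replicate 1, the highest of its group, was left out, in 1 of 24 alternatives.

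Cd44 (chromosome 2, 102811142 to 102901665) was the most variable of the genes within the obese group. Control mice had 71.0, 54.3, 76.2, 68.3 and 86.5 CPM, obese mice 86.8, 55.3, 101, 72.4 and 56.8 CPM, and formerly obese mice 87.1, 76.2, 100.4, 75.0 and 112 CPM. The obese mice spanned nearly the whole range of the other groups, and the formerly obese mice overlapped with both. The log2 fold change was 0.34 (SE 0.16) for formerly obese against control mice, and Cd44 was not called in any comparison under any alternative.

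**Figure D2:**
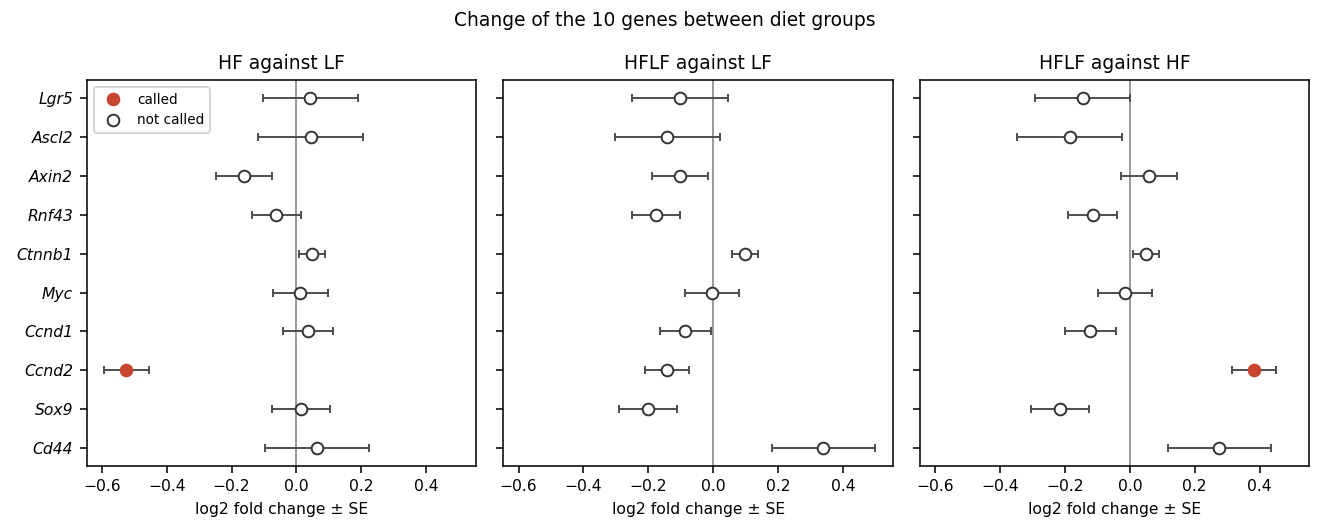
Log2 fold change of each gene (horizontal axis, bars are ± 1 SE from the fit) in the 3 diet comparisons. Filled points meet the call rule, which Ccnd2 does at -0.52 in obese against control and at 0.38 in formerly obese against obese mice, and open points do not.

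The call rule combined a fold change over 1.2 in either direction with a p-value under 0.01 and an adjusted p under 0.25, as in the methods of the study. In obese against control mice, 1 of the 10 genes was called (Ccnd2, lower), where 1.58% of 12961 tested genes were called, 0.718% higher and 0.864% lower. None of the 10 was called in formerly obese against control mice, where 3.72% of all tested genes were called (1.85% higher and 1.87% lower). In formerly obese against obese mice 1 of the 10 was called (Ccnd2, higher), where 2.65% of all tested genes were called (1.23% higher and 1.42% lower). The values of the groups did not overlap for 1 gene in obese against control mice (Ccnd2; 2.47% of all tested genes), for 1 gene in formerly obese against control mice (Ctnnb1; 3.62%) and for 2 genes in formerly obese against obese mice (Rnf43 and Ccnd2; 3.38%). Since the genes were chosen with these contrasts known, nothing is read from these shares.

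The genes other than Ccnd2 stayed within narrow limits between obese and control mice. Their log2 fold changes ran from -0.16 (Axin2) to 0.06 (Cd44), and 7 of these 9 were smaller than their own SE. In formerly obese against control mice they ran from -0.20 (Sox9) to 0.34 (Cd44), and 8 of all 10 genes had a negative value. The median over the 10 genes was 0.03, -0.10 and -0.07 in obese against control, formerly obese against control and formerly obese against obese mice, beside medians over all tested genes of 0.000245, -0.000649 and 0.0023.

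Among mice of the same group, some of the genes varied together. After the group means were taken off, the log2 CPM of Myc and Sox9 had a Pearson r of 0.79 over the 15 libraries, as did Axin2 and Cd44, and Lgr5 and Ascl2 had an r of 0.63. Lgr5 and Ccnd2 ran in opposite directions, with an r of -0.55. Of 11035 genes with a mean of at least 50 counts, those most like Lgr5 on this measure were Fbn1 (r = 0.91), Tgfbi (0.91), Pds5b (0.90), Sdad1 (0.88) and Dsel (0.88). Those most like Ccnd2 were Wls (r = 0.83), which encodes the carrier that escorts Wnt ligands to the cell surface, Irf8 (0.81), Oit1 (0.81), Ifih1 (0.81) and Enpp1 (0.81). These values describe 15 libraries whose points share preparation and depth, and high values are found for some gene pairs in any such ranking of so many genes.

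The rest of the pathway was read from lists written from textbook knowledge, but with earlier results of these data known. Their calls and shares are thus a description too. The lists hold 154 genes other than the 10, 115 of them tested. Most ligand genes had low counts in these libraries. Of 25 genes for ligands, R-spondins and ligand secretion, 21 did not pass the filter, all of them under 1 CPM in each library, among them Wnt3, Wnt2b and Rspo1 to Rspo4. The 4 tested ones were Wnt5a, Wnt8b, Porcn, which encodes the acyltransferase of the ligands, and Wls, and none of them was called. Likewise 11 of 17 inhibitor genes, Dkk1 to Dkk4 and Sfrp1 among them, were not tested, and none of the 6 tested was called.

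None of the 115 tested pathway genes was called in obese against control mice, and 4 of 115 (3.48%) were called in formerly obese against control mice, 1 higher and 3 lower, beside the 3.72% of all tested genes. Receptors accounted for 2 of them, of 16 tested. Fzd1, a Frizzled receptor gene, lay at 37.2, 47.1, 35.5, 41.1 and 43.4 CPM in the control group, 38.8 to 41.7 CPM in obese mice and 34.4, 32.2, 31.5, 28.4 and 34.7 CPM in formerly obese mice. All formerly obese mice were below all others, and Fzd1 fell by 0.34 on the log2 scale against control mice (SE 0.07; edgeR adjusted p = 0.026) and by 0.32 against obese mice (SE 0.07; edgeR adjusted p = 0.0623). Fzd6, another Frizzled receptor gene, had a mean of 20.8 ± 2.39 CPM in control, 16.5 ± 2.25 CPM in obese and 15.2 ± 2.05 CPM in formerly obese mice (SD, n = 5 each). It fell by 0.45 in formerly obese against control mice (SE 0.11; edgeR adjusted p = 0.0359), while the value of -0.33 in obese mice missed the cutoff (SE 0.11; edgeR adjusted p = 0.255). In that comparison Fzd6 was called in 10 of 24 alternatives, at log2 fold changes of -0.41 to -0.33. The other receptors, which include Lgr4, Lrp5 and Lrp6, were not called.

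Prom1, which encodes the membrane protein prominin-1 and was 1 of 18 tested genes of the stem cell signature, showed the opposite direction. It lay at 369, 339, 400.0, 408 and 359.7 CPM in control mice, at 396, 364, 473, 453 and 424 CPM in obese mice and at 557, 459, 551, 472 and 528 CPM in formerly obese mice. Formerly obese mice were all above control mice, and obese mice lay between and overlapped with both. Prom1 rose by 0.45 on the log2 scale against control mice (SE 0.08; edgeR adjusted p = 0.0143) and by 0.28 against obese mice (SE 0.08; edgeR adjusted p = 0.1), with the second call lost in 5 of 24 alternatives. The other 17 genes of the signature, among them Smoc2, Lrig1, Bmi1 and Hopx, were not called in any comparison.

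Mycn, a paralogue of Myc with 2.14 to 5.13 CPM, was 1 of 11 tested genes of the Myc network, and the only one called. It fell by 0.57 in formerly obese against control mice (SE 0.17; edgeR adjusted p = 0.0902) and by 0.68 against obese mice (SE 0.17; edgeR adjusted p = 0.0828). The former call was lost in 5 of 24 alternatives. Max, Mxi1 and the others did not meet the rule. The nuclear partners of beta-catenin, such as Tcf7, Tcf7l1 and Tcf7l2, were not called in any comparison either (11 tested).

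In formerly obese against obese mice, 6 of 115 pathway genes (5.22%) were called, 2 higher and 4 lower, beside the 2.65% of all tested genes. Besides Fzd1, Mycn and Prom1 these were Dvl2, Jun and Edn1. Dvl2 encodes a Dishevelled protein that relays the receptor signal to the destruction complex. It was the only one called of 15 tested genes listed for that complex and its Dishevelled relays. It fell by 0.28 (SE 0.09; edgeR adjusted p = 0.186), and this call was lost in 11 of 24 alternatives. Jun, a subunit of the AP-1 transcription factor and 1 of 19 tested other targets, fell by 0.41 (SE 0.11; edgeR adjusted p = 0.0886). Edn1, the gene of the peptide endothelin-1 in the same list, rose by 0.63 (SE 0.19; edgeR adjusted p = 0.137), with values of 19.8 to 34.2 CPM in obese and 35.0 to 60.1 CPM in formerly obese mice, and lost the call in 5 of 24 alternatives. All 6 calls of this comparison were lost at an adjusted p under 0.05.

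Of the 19 tested genes for partners and inhibitors of the G1 cyclins, none was called in any comparison. Cdkn1c came near in obese against control mice, at 4.58 to 5.18 CPM against 3.54 to 4.17 CPM. Such ranges were apart for 2.47% of all tested genes. Its log2 fold change was 0.34 (SE 0.12; edgeR adjusted p = 0.273), with a call in 5 of 24 alternatives. Formerly obese mice, at 3.17 to 4.66 CPM, overlapped with both groups. Ccnd3, the third D-type cyclin gene, had 46.5 ± 2.73, 46.7 ± 1.91 and 42.5 ± 2.56 CPM in control, obese and formerly obese mice (SD, n = 5 each), and its log2 fold change in obese mice was 0.01 (SE 0.05; edgeR adjusted p = 0.988). Cdk4 and Cdk6, the kinases that the D cyclins activate, had log2 fold changes of -0.06 (SE 0.06) and 0.04 (SE 0.11) in the same comparison. Whether the difference of Ccnd2 departs from that of Ccnd3 or Ccnd1 was not tested.

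**Figure D3:**
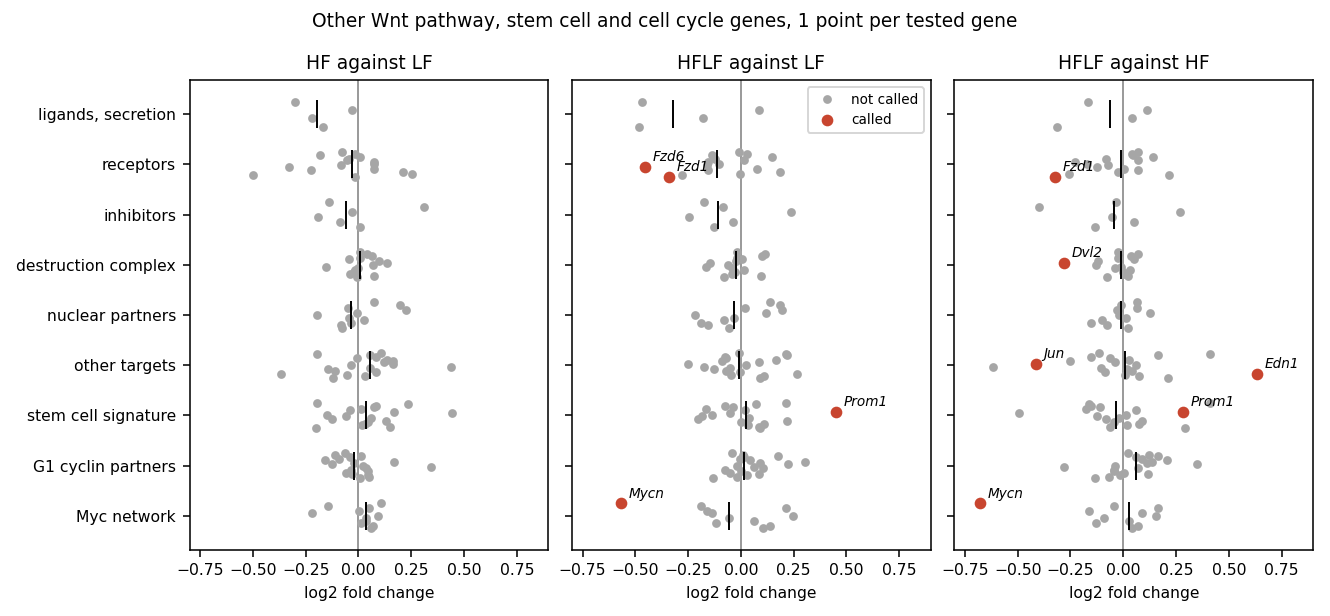
Log2 fold change (horizontal axis) of the 115 tested genes of 9 lists of Wnt pathway, stem cell and cell cycle genes in the 3 diet comparisons. Each gene has 1 point in every list that holds it, so genes on several lists are drawn repeatedly. The list median is a black tick, and called genes are named. No gene is called in obese against control mice, 4 in formerly obese against control mice and 6 in formerly obese against obese mice.

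Some markers of differentiated cells moved in the same libraries as the receptor genes and Prom1. None of the 7 goblet cell, 7 enteroendocrine and 4 deep secretory markers was called in formerly obese against control mice. Of 8 colonocyte markers 4 were called higher in formerly obese against control mice, Car4, Slc26a3, Krt20 and Ceacam20. The summed level of all 8 was 10453 to 15380.3 CPM against 7441 to 13178 CPM in control mice. Car1, which was not called, made up the largest part of this sum, with means of 7129 CPM in formerly obese and 4103 CPM in control mice. Among 4 tested tuft cell markers, Dclk1 and Trpm5 were called higher, with a sum over the list of 49.6 to 66.7 CPM against 35.9 to 54.6 CPM. Of the 10 small intestine markers 5 were under 1 CPM in every library and 1 of those, Defa24, was at 0 throughout. Sis, Alpi, Fabp2 and Rbp2 were called higher in formerly obese against control mice. The summed level of all 10 was 492 to 793 CPM against 334 to 666 CPM in control mice. Most of it was Fabp2, with means of 563 CPM in formerly obese and 372 CPM in control mice. In obese against control mice, 1 of 8 colonocyte markers was called lower (Slc20a1) and 1 of 7 goblet cell markers higher (Spink4). In formerly obese against obese mice, Car4, Slc26a3 and Slc20a1 of the colonocyte list and Ang4 of the deep secretory list (4 genes) were called higher, and Pyy of the enteroendocrine list (7 genes) and Lyz1 of the small intestine list lower. Lyz1 and Alpi were called higher in obese against control mice. Over all tested genes, 1.85% were called higher and 1.87% lower in formerly obese against control mice. The shares were 0.718% and 0.864% in obese against control and 1.23% and 1.42% in formerly obese against obese mice. No gene of the fibroblast, immune or endothelium lists was called in any comparison. The part of these shifts in the differences above was not tested.

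Methylation at the BSP-seq CpGs was high and nearly the same in every mouse. Within Lgr5, 13 of 14 CpGs were over 85% methylated in every mouse, and the exception, CpG 6 in the order of the printed sequence, lay at 71.4 to 75.4%. Within Ctnnb1, 6 of 7 CpGs were over 85% methylated in every mouse and CpG 4, the last one inside the exon, lay at 71.1 to 74.8%. The group SDs of single CpGs ran from 0.202 to 1.66 percentage points in Lgr5 and from 0.101 to 1.11 percentage points in Ctnnb1. The CpGs thus differed far more from each other than mice did at any of them.

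The mean over the 14 Lgr5 CpGs was 92.6, 91.9, 92.3, 91.9 and 92.4% in control mice. It was 92.0, 92.1, 91.5, 92.2 and 92.1% in obese mice and 92.3, 92.1, 92.5, 92.4 and 92.0% in formerly obese mice. The groups overlapped, with means of 92.2 ± 0.296, 92.0 ± 0.27 and 92.2 ± 0.225% (SD, n = 5 each). Obese mice differed from control mice by -0.267 percentage points (exact two-sided permutation test, p = 0.183, adjusted over 6 tests 0.548) and formerly obese from obese mice by 0.266 percentage points (exact permutation test, p = 0.119, adjusted 0.548). With the median over the CpGs in place of the mean, the difference between obese and control mice was -0.195 percentage points and passed (exact permutation test, adjusted p = 0.0476). That adjustment covered 6 tests and not the choice between summaries. No single Lgr5 CpG passed in this comparison (smallest limma adjusted p = 0.349), so no difference is concluded from the median. Formerly obese and control mice had the same mean within 0.001 percentage points (exact permutation test, p = 1).

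The mean over the 7 Ctnnb1 CpGs ranged from 92.3 to 92.7% in control, 92.2 to 92.7% in obese and 91.9 to 92.7% in formerly obese mice. The 3 differences between groups in this mean were at most 0.0149 percentage points in size (exact permutation tests, adjusted p = 1 for each). With the median over the CpGs in place of the mean, obese mice differed from control mice by -0.418 percentage points (exact permutation test, adjusted p = 0.274) and formerly obese from control mice by -0.422 percentage points (adjusted p = 0.27, exact permutation test).

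**Figure D4:**
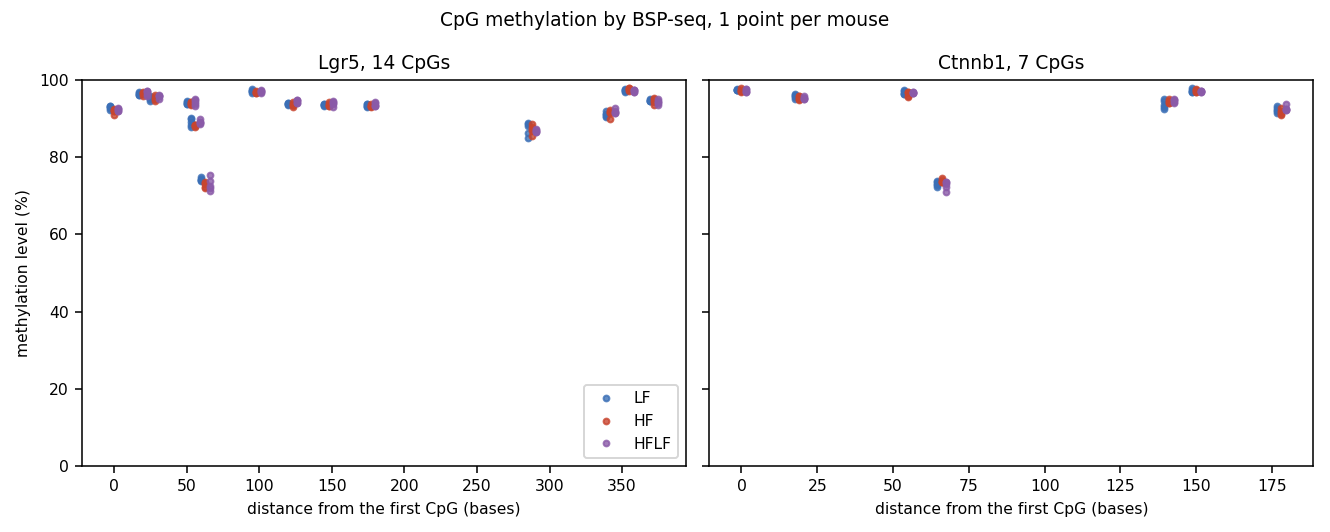
Methylation level (%, vertical axis from 0 to 100) of the 14 Lgr5 and 7 Ctnnb1 CpGs against the distance from the first CpG in bases, with 1 point per mouse and the groups set slightly apart sideways for sight. Values of the 15 mice nearly coincide at each CpG, and 1 CpG in each gene stands lower, at 71.4 to 75.4% in Lgr5 and 71.1 to 74.8% in Ctnnb1.

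None of the 21 CpGs passed an adjusted p of 0.05 in the limma fit over all 233 CpGs, of which 0.429%, 0.429% and 0.0% passed in obese against control, formerly obese against control and formerly obese against obese mice. At an unadjusted p under 0.05 there were 2 Lgr5 CpGs in the first of these comparisons, 1 in the second and 2 in the third, and 0, 0 and 2 Ctnnb1 CpGs. The largest single difference was at Lgr5 CpG 6, from 74.3 ± 0.414% in control to 72.9 ± 0.744% in obese mice (SD, n = 5 each), a change of -1.42 percentage points. The smallest p was at Lgr5 CpG 1, which went from 92.9 ± 0.433% to 91.9 ± 0.548% (difference -1.01 percentage points; limma adjusted p = 0.349 over 233 CpGs). The deposited values carry no read depth, so that no counting interval could be set on them.

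The DMR list extends the view to the rest of the gene bodies, without values for single mice. Within 10 kb of the spans of the 10 genes lay 5 of 8199 regions, in 3 genes, namely Rnf43 with 3 and Lgr5 and Cd44 with 1 each, and all 5 lay within the spans themselves. Of all tested gene entries, 20.6% had a region within 10 kb and 12.3% had one within the span itself. The median span was 26224 bases for the 10 genes and 21304 bases for all tested entries. All 5 regions were hypomethylated in obese mice, in a list that held 4123 hypermethylated and 4076 hypomethylated regions. They were 10 to 39 bases long, as the sequences above show, and none was at a gene start. The first Rnf43 region lay 39.0 kb from the gene start of the count table. RefSeq has a second Rnf43 start much nearer to it, with a promoter window at 87699647 to 87699946. For the other 7 genes the nearest region lay between 31.9 kb (Sox9) and 284 kb (Axin2) outside the span. For Ccnd2, the only one of the genes called in the RNA data, it was a hypermethylated region 44.8 kb away (chromosome 6, 127080901 to 127080915), in Fgf23. A region within 50 kb was found for 43.8% of all tested gene entries, and a link of this region to the Ccnd2 level was not tested. The Lgr5 region was 8.08 kb from the gene start, whereas the BSP-seq CpGs were 128 kb from it, so that the amplicon does not measure that region.

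The promoter windows that were at hand, from 250 bases before to 50 after the gene start in RefSeq (GRCm38.p6), held no exact match to the core letters of the TCF/LEF site. The letters searched, on both strands, were CTTTG followed by A or T in each of the next 2 positions, and no other motif was searched. There were 0 matches in 7 windows of 5 genes (Ascl2, Axin2, Cd44, Ctnnb1 and Rnf43), where 16.9% of 32851 windows of the same length held at least 1. Windows of Lgr5, Myc, Ccnd1, Ccnd2 and Sox9 were not analysed here.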

How the data were processed

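RNA-seq, BSP-seq and WGBS of colonic epithelium were deposited for 5 mice per diet group. For RNA-seq, the authors mapped stranded mRNA reads to mm10 with TopHat2 2.0.4 and deposited raw counts per gene from HTSeq, as whole numbers. BSP-seq levels were deposited as a fraction from 0 to 1 for each CpG and mouse, without depth, and were turned into percent here, and of 253 entries 20 repeated another exactly and were counted once. For WGBS, mapped with Bismark, the authors' list of regions that differed between HF and LF by a Rao-Scott likelihood ratio test gives position and direction, with no value per mouse. Tables of the authors' own fold changes and p-values were not used, and WGBS values of single mice were not analysed here. The sequence around the Ctnnb1 CpGs is not reported here. No columns of other samples were in the tables.

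Counts were fitted in edgeR 4.0.16 (R 4.3.3; filterByExpr, TMM, quasi-likelihood test, all 15 libraries, group as the only term), with Benjamini-Hochberg adjustment over 12961 of 24918 entries. SE is the log2 fold change divided by the square root of F. CPM use TMM-scaled totals, and RPKM the length of the union of GENCODE exons. CpGs were compared with limma 3.58.1 and by exact permutation of mice. The fits were tested on simulated data. Same-numbered libraries had correlations of -0.231 to 0.333 in their deviations from the group means, so the numbers were not taken as pairs. The smallest chi-square per degree of freedom between replicates was 5.47, so no library was counted as deposited more than once. Depth was 15230391 to 22762095 counts per library, which gave 82 or more raw counts for each of the 10 genes.

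The members and gene lists were chosen with earlier results of these data known. The text names all 10 genes, every list gene that was called, the 5 genes most like Lgr5 and Ccnd2 (mean of at least 50 counts), all CpGs in the 2 windows and all regions near the 10 genes; other genes named as list members were chosen by role. Alternatives were other scalings (RLE, upper-quartile), DESeq2 1.42.0, other filters, a replicate block, GC correction (99.3% of tested entries had a value), a stricter cutoff, only the compared groups, and each library left out.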

Additional observations from a re-analysis of the deposited data

Results flagged for a closer look

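Among 36 groups of 5 mice examined (10 genes and 2 CpG windows in 3 diet groups), 2 held a sample that stood apart by Dixon's test, where chance alone flags about 1 in 20. Ccnd2 in formerly obese replicate 5 was at 356.5 CPM, with the next highest mouse of the group at 294.5 CPM, so that the gap took 0.723 of the range of the group. Rnf43 in formerly obese replicate 3, the most deeply sequenced library, was at 50.6 CPM, with the next lowest mouse at 55.4 CPM and a gap of 0.749 of the range.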

How the results depend on the processing

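Ccnd2 met the call rule in all 24 alternatives in obese against control mice (log2 fold change -0.57 to -0.50) and in formerly obese against obese mice (0.31 to 0.42), and in none of 24 against control mice after weight loss. The other genes met it in no alternative, except Sox9 without formerly obese replicate 1. The count of called genes among the 10 was 1 to 1, 0 to 1 and 1 to 2 when single libraries were left out, in obese against control, formerly obese against control and formerly obese against obese mice. All alternatives reuse the libraries behind the choice of the genes, so they show only how the label depends on processing.

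Pathway genes called in obese against control mice went from 0 to 1 with upper-quartile scaling, DESeq2, a minimum of 10 counts, GC correction or the replicate block, and to 2 with the compared groups only (Fzd6 and Cdkn1c). With single libraries left out they were 0 to 3, 3 to 8 and 4 to 6 in the 3 comparisons, with the 3 and the 8 both without control replicate 4, and at an adjusted p under 0.05 the 6 of the last comparison came to 0. Over all genes that cutoff left 16 of 205, 282 of 482 and 25 of 343 calls, and leaving out single libraries gave 40 to 331, 362 to 660 and 167 to 400. In obese against control mice 40 were left without obese replicate 3, 44 when control replicate 2 was dropped, 55 and 85 without obese replicates 5 and 4, 130 without control replicate 1, 135 without obese replicate 1, and 323 and 331 without control replicate 4 and obese replicate 2. In formerly obese against obese mice it was 167 without formerly obese replicate 5, and 195 and 209 without obese replicates 1 and 2. The replicate block changed no call among the 10 genes, and 6 of 15 libraries were most like a library of their own number.

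For the mean of the Lgr5 CpGs, the difference between obese and control mice did not pass (-0.267 percentage points, adjusted p = 0.548, exact permutation test). It spanned -0.345 to -0.154 with single mice left out. With the median over CpGs it passed (-0.195 percentage points, adjusted p = 0.0476, exact permutation test), by an adjustment that did not cover the choice between summaries. The difference of formerly obese from control mice turned to 0.0182 on the logit scale and 0.13 with the median, and spanned -0.079 to 0.0823. From obese mice it spanned 0.154 to 0.334. For Ctnnb1, obese against control turned to -0.0195 (logit) and -0.418 (median), and formerly obese against obese to 0.012 (logit). With single mice left out the 3 Ctnnb1 differences spanned -0.0724 to 0.0757, -0.0914 to 0.115 and -0.103 to 0.104. With mice paired by replicate number, exact sign-flip tests of both genes gave adjusted p = 0.938 or 1. With 5 pairs such a test cannot reach a p under 0.05 whatever the values, so nothing is read from it. No CpG of either gene passed with any single mouse left out. A window of 50 kb found 11 regions in place of 5 and no further CpG. The cause of these changes was not tested. The paper describes the amplicon sequencing as deep, but the methylation values used here carry no depth for single CpGs and mice. The precision of single values was therefore not computed.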
